A study of Mus musculus with 4 samples.

Results

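Type I interferon-stimulated genes are described here in gonadal white adipose tissue (gWAT) of mice that lack Dnmt1 in adipocytes. The set holds 40 genes, named by symbol and listed with results of these data already known, and all 40 were found among the 17335 genes of the deposited expression table. Type I interferons are secreted proteins that cells release after sensing viral or misplaced nucleic acid. They bind the receptor IFNAR on nearly every cell type, where the kinases JAK1 and TYK2 phosphorylate STAT proteins, among them STAT2. STAT2 joins IRF9 in a complex, ISGF3, that binds the interferon-stimulated response element (ISRE) in promoters and switches on genes whose products sense, block or degrade viral RNA. Adipose tissue of obese animals holds macrophages and other immune cells, and these respond to interferon as do the adipocytes.

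The fl/fl group carried floxed Dnmt1 alleles and served as control, and the AD1KO group carried the same floxed alleles with Cre driven by the adiponectin promoter, which is active in adipocytes. All animals were female littermates fed a high-fat diet (HFD), and the labels give 18 weeks on the diet. RNA of 4 animals was pooled within each group and sequenced as 1 library, from the whole fat pad, so it also holds RNA of immune, stromal and endothelial cells, which the Cre does not target. With 1 library per group there is no replicate check, no p-value is given, and a counting interval states only how precisely reads were sampled.

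Levels are given as FPKM, fragments per kilobase of transcript scaled to the library, so that genes can be set side by side per length. A change is the log2 of the AD1KO level divided by the fl/fl level, each with 0.01 FPKM added, so that negative values mean a lower level in AD1KO. A gene was counted as lower at -0.5 or below and as higher at 0.5 or above if it reached 0.1 FPKM in 1 library. All 40 members passed this minimum, as did 15839 genes in all. Reads were estimated from the whole-number steps of low FPKM values and summed to 17733069 in fl/fl and 17540843 in AD1KO, and the members held between 51 estimated reads over both libraries (Mx2) and 37446 (Ifi27l2a). Dnmt1, the targeted gene, went from 6.99 to 3.33 FPKM (log2 ratio -1.07), in a value that also counts exons outside the deleted part. The adipocyte markers matched the labelled tissue, Adipoq being listed at 1911 FPKM (fl/fl) and 3318 FPKM (AD1KO).

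The ISRE is shown before the levels because it is the promoter sequence that ISGF3 binds. A table of RefSeq promoters on build GRCm38.p6, running from 250 bases before to 50 bases after each start site, held 29 of the 40 members. These had 35 windows, since 5 members had more than 1, and a match in any window of a gene was counted. In 27 of the 35 windows, bases 11 to 40 after the start lay in an annotated transcript of the gene. The start sites of the other windows did not pass this check, but their windows were kept. Dhx58, Ifi204, Ifi27l2a, Mx1, Mx2, Oas2, Parp14, Parp9, Rtp4, Usp18 and Zbp1 were not matched. The motif searched was GAAA, any 2 bases and GAAA again, on either strand, and it was found in 14 of the 29. The sites below come from members of different roles and are written 5′ to 3′ on the strand of the gene, with the motif in capitals. A site that reads TTTC, 2 bases and TTTC is the same motif on the opposite strand.

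Isg15, chr4:156200871-156200900, minus strand: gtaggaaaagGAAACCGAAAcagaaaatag
Ifit1, chr19:34640794-34640823, plus strand: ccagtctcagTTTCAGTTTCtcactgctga
Ifit3, chr19:34583363-34583392, plus strand: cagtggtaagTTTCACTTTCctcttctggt
Oas1a, chr5:120907526-120907555, minus strand: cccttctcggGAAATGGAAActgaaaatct
Bst2, chr8:71537583-71537612, minus strand: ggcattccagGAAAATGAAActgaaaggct
Ifitm3, chr7:141010706-141010735, minus strand: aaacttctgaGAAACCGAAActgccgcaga
Ddx58, chr4:40239804-40239833, minus strand: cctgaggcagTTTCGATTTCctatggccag
Stat2, chr10:128270266-128270295, plus strand: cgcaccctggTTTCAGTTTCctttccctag

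In Isg15 the motif occurred at 3 overlapping places, the first bases lying 78, 72 and 66 bases before the start site. In Ifit1 it was found at 104 and 85 bases before the start, and in Ifit3 at 156 and 122. The motif of Ddx58 began 3 bases after the start, and the 2 of Ifitm3 began 3 and 20 bases after it. These letters are a description of the window, and no binding was measured.

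Transcripts of the interferon-stimulated genes were lower in AD1KO gWAT in every group of roles in the pathway. Of the 40 members, 37 were at -0.5 or below, against 19.1% of all tested genes. None was at 0.5 or above, against 14.3% of all tested genes. The median log2 ratio was -0.90, with quartiles of -1.16 and -0.69, while the median over all tested genes was -0.04. All 40 ratios were negative, against 53.8% of all tested genes, although Ifi27l2a moved to 0.03 when the libraries were scaled by their upper quartile. The fall reached a log2 ratio of -1 in 17 members, against 8.95% of all tested genes.

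The counting interval lay wholly at or below -0.5 in 29 members, against 8.29% of all tested genes. It lay wholly below 0 in all 40, against 29% of all tested genes. Intervals narrow as reads increase, and the members held a median of 1197 estimated reads over both libraries, against 570 for all tested genes. These shares of intervals were not matched for reads. The 3 members past neither threshold were Samd9l at -0.49, Ifih1 at -0.34 and Ifi27l2a at -0.06. Lgals3bp at -0.50 lay just inside the threshold. In whole tissue, fewer cells of a type and less RNA per cell cannot be told apart.

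**Figure D1:**
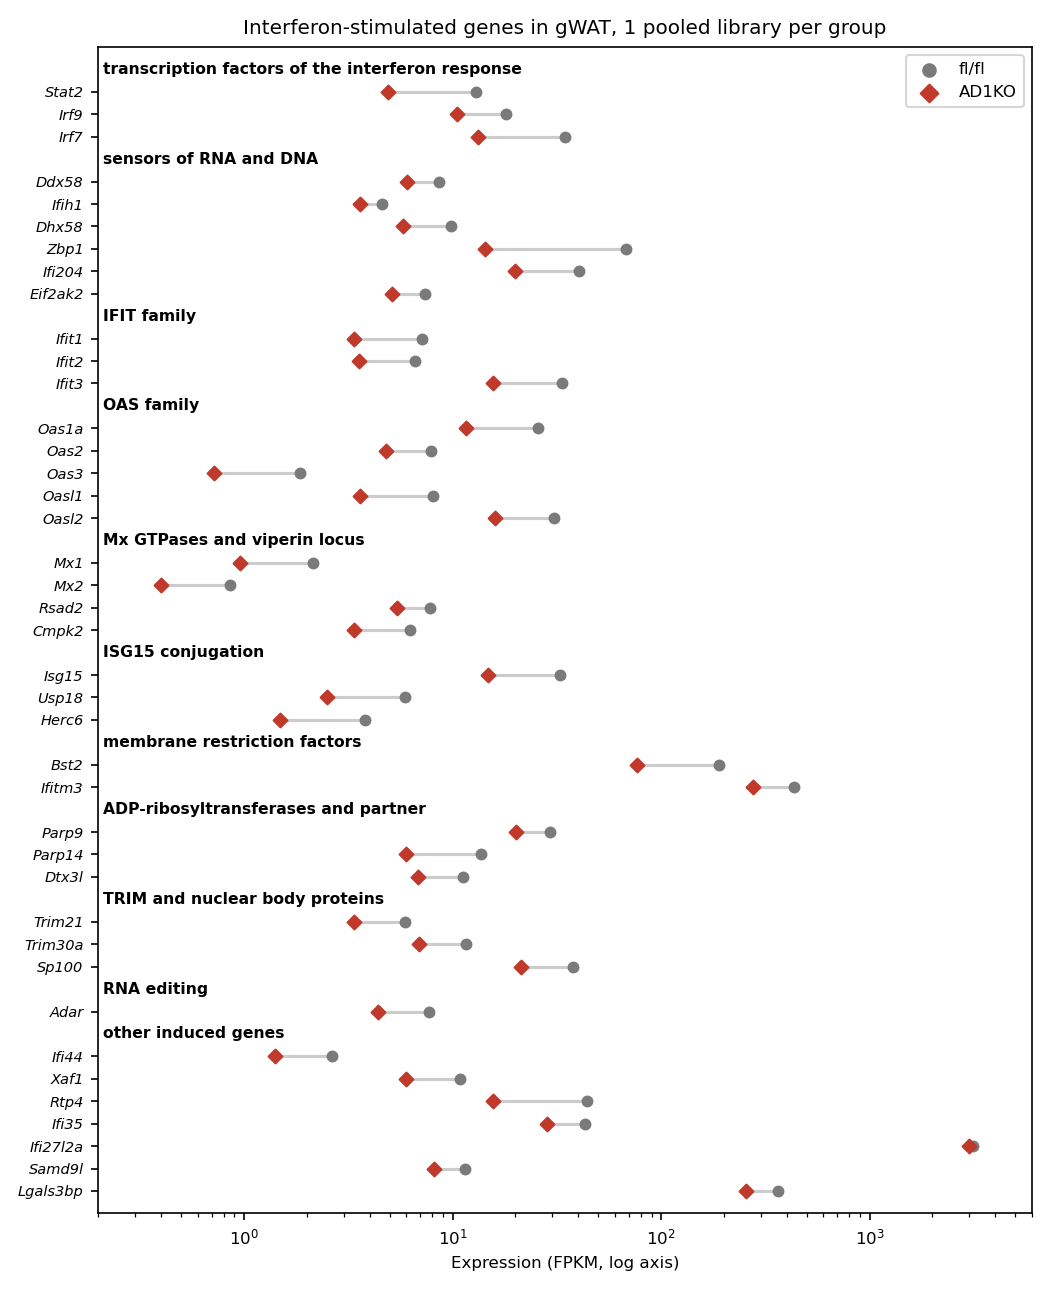
Level of each of the 40 interferon-stimulated genes in FPKM on a log axis, grouped by role, with a grey circle for the fl/fl library and a red diamond for the AD1KO library. The diamond lies to the left of the circle in all 40, and the distance is smallest for Ifi27l2a, whose direction turned under upper quartile scaling.

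Within the ISGF3 complex, Stat2 (gene 20847) fell from 13.0 FPKM in fl/fl to 4.89 in AD1KO, which gave a log2 ratio of -1.41 with a 95% counting interval of -1.59 to -1.24. Irf9 (gene 16391), the DNA-binding partner, measured 18.0 FPKM in fl/fl and 10.6 in AD1KO, a ratio of -0.77. Both passed the threshold, and their counting intervals did not overlap. Irf7 (gene 54123), the factor that amplifies interferon production, fell from 34.4 to 13.2 FPKM, with a ratio of -1.38. Irf9 overlaps Rnf31 over 123 bases on the same strand in the mm9 annotation, and Irf7 overlaps Phrf1 over 45 bases on the opposite strand, and how reads in these stretches were assigned is not given in the sources used here.

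Sensors of nucleic acid had the widest range of ratios of the groups of roles. Zbp1 (gene 58203), a receptor for Z-form RNA and DNA that can start cell death, showed the largest fall of the 40, from 67.8 FPKM in fl/fl to 14.3 in AD1KO. This was 4.73-fold, or a log2 ratio of -2.24 with an interval of -2.42 to -2.06, from 1445 estimated reads in fl/fl and 303 in AD1KO. It lies on chromosome 2 of mm9, 173032113 to 173044424, minus strand. Ifi204, a DNA-binding protein of the PYHIN family, went from 40.3 to 19.8 FPKM, a ratio of -1.02, though it shares 22.6% of its 50-base stretches with Mnda. The cytosolic RNA helicases changed less than these. Dhx58, which encodes the regulatory helicase LGP2, measured 9.84 FPKM in fl/fl and 5.76 in AD1KO, a ratio of -0.77. Ddx58, encoding RIG-I, was at 8.59 and 6.04 FPKM, a ratio of -0.51. Ifih1, encoding MDA5, was at 4.57 and 3.6 FPKM, and its ratio of -0.34 did not pass the threshold. Eif2ak2 encodes PKR, the kinase that halts translation on binding double-stranded RNA, and it measured 7.38 and 5.15 FPKM, a ratio of -0.52. Of the 6 sensors, 5 passed the threshold, but Ddx58 and Eif2ak2 did so narrowly and lost the call under each of the 3 other scalings.

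The IFIT proteins bind viral RNA and block its translation, and their 3 genes here fell by similar amounts. Ifit1 went from 7.12 FPKM in fl/fl to 3.35 in AD1KO, Ifit2 from 6.64 to 3.55 and Ifit3 from 33.3 to 15.7. The log2 ratios were -1.09, -0.90 and -1.08, and their counting intervals overlapped. Ifit3 shares 51.5% of its 50-base stretches with its copy Ifit3b, so reads may have been split between them, and the summed estimated reads of the pair were 1320 in fl/fl and 650 in AD1KO, a ratio of -1.01.

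The OAS enzymes make the oligoadenylates that activate RNase L, and all 5 members of the family passed the threshold. Oas1a measured 25.6 FPKM in fl/fl and 11.6 in AD1KO, a ratio of -1.14. Oas2 was at 7.85 and 4.8 FPKM, the smallest change of the family at -0.71. Oas3 had the lowest level, 1.85 and 0.72 FPKM, and the largest change at -1.35, with an interval of -1.82 to -0.91. The OAS-like genes moved in the same direction, Oasl1 from 8.1 to 3.61 FPKM with a ratio of -1.16 and Oasl2 from 30.7 to 16.0 FPKM with a ratio of -0.94. Oas1a shares 57.1% of its 50-base stretches with Oas1g, and their summed reads of 953 in fl/fl and 422 in AD1KO gave a ratio of -1.16.

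Among the GTPases and enzymes that restrict viral replication, Mx1 measured 2.15 FPKM in fl/fl and 0.96 in AD1KO, a ratio of -1.15. Mx2 was the least abundant member, at 0.86 and 0.4 FPKM. Its ratio of -1.09 rested on 35 and 16 estimated reads, which gave an interval of -2.07 to -0.22, the widest of the 40. Rsad2, encoding the radical SAM enzyme viperin, measured 7.78 FPKM in fl/fl and 5.41 in AD1KO, a ratio of -0.52. Its neighbour Cmpk2, a mitochondrial nucleotide kinase, was at 6.26 and 3.37 FPKM, a ratio of -0.89. The change of Rsad2 was thus smaller than that of Cmpk2, though their intervals of -0.73 to -0.32 and -1.16 to -0.63 overlapped.

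ISG15 is a ubiquitin-like protein that is joined to other proteins during the interferon response, and each measured step of its cycle was lower. Isg15 itself fell from 32.6 FPKM in fl/fl to 14.7 in AD1KO, a ratio of -1.15. Herc6, the ligase that attaches ISG15 in mice, fell from 3.82 to 1.48 FPKM, a ratio of -1.36. Usp18, the protease that removes ISG15 and also restrains the interferon receptor, fell from 5.91 to 2.51 FPKM, a ratio of -1.23. The activating enzyme Uba7 and the conjugating enzyme Ube2l6, which are not members, had ratios of -1.12 and -0.98. Genes for attachment and for removal therefore fell side by side, with ratios that lay within each other's counting intervals for Isg15, Herc6 and Usp18.

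Of the membrane proteins, Bst2 encodes tetherin, which holds budding virions at the cell surface, and Ifitm3 blocks fusion of virus in endosomes. Bst2 (gene 69550) was an abundant transcript that fell from 189.7 FPKM in fl/fl to 77.0 in AD1KO, a ratio of -1.30 with an interval of -1.41 to -1.19. Ifitm3 was higher still at 432 and 276 FPKM, and its ratio of -0.64 was smaller. Their intervals did not overlap.

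The ADP-ribosyltransferase Parp14 went from 13.7 FPKM in fl/fl to 6.00 in AD1KO, a ratio of -1.19. Parp9, which acts with the ubiquitin ligase encoded by Dtx3l, was at 29.5 and 20.1 FPKM, a ratio of -0.55. Dtx3l was at 11.3 and 6.8 FPKM, a ratio of -0.73. Parp14 thus changed more than the partner genes beside it, and its interval overlapped neither of theirs. Parp9 and Dtx3l overlap over 682 bases on opposite strands, and whether the counting used strand is not stated.

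Trim21, the cytosolic antibody receptor, measured 5.94 FPKM in fl/fl and 3.37 in AD1KO, a ratio of -0.82. Trim30a, a negative regulator of Toll-like receptor signalling, measured 11.6 and 6.9 FPKM, a ratio of -0.75. Sp100, a component of nuclear bodies, measured 37.8 and 21.4 FPKM, a ratio of -0.82. Adar, which edits adenosine to inosine in double-stranded RNA, measured 7.7 and 4.41 FPKM, a ratio of -0.80. The 4 ratios thus lay close together, and each had its interval wholly below -0.5.

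The remaining 7 members, whose functions differ or are less defined, held both large changes and the smallest. Rtp4 (gene 67775), a chaperone of receptors, had the second largest fall of the 40, from 44.3 FPKM in fl/fl to 15.7 in AD1KO, a ratio of -1.50. Ifi44 was at 2.64 and 1.41 FPKM with a ratio of -0.90, and Xaf1, a partner of an inhibitor of apoptosis, was at 10.8 and 5.95 FPKM with a ratio of -0.86. Ifi35 was at 43.3 and 28.5 FPKM, a ratio of -0.60. The secreted glycoprotein gene Lgals3bp was at 362 and 256 FPKM, a ratio of -0.50, and Samd9l, a brake on protein synthesis, was at 11.5 and 8.18 FPKM, a ratio of -0.49.

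Ifi27l2a (gene 76933) stood apart in level and in change. It measured 3132 FPKM in fl/fl and 2998 in AD1KO, a ratio of -0.06 that turned to 0.03 under upper quartile scaling. It made up 66.2% of the summed FPKM of the 40 members in fl/fl and 76.7% in AD1KO, so the sum over all members, 4730 FPKM in fl/fl and 3908 in AD1KO, changed by only -0.28 on the log2 scale. Without it the sum was 1598 and 909.5 FPKM, a change of -0.81. Ifi27l2a shares 40.8% of its 50-base stretches with Ifi27l2b, which overlaps it in the annotation, but Ifi27l2b was listed at only 10.01 and 8.88 FPKM. The related gene Ifi27, which is no member, had the highest ratio of the further interferon-stimulated genes, 0.47, from 349 FPKM in fl/fl and 482 in AD1KO.

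**Figure D2:**
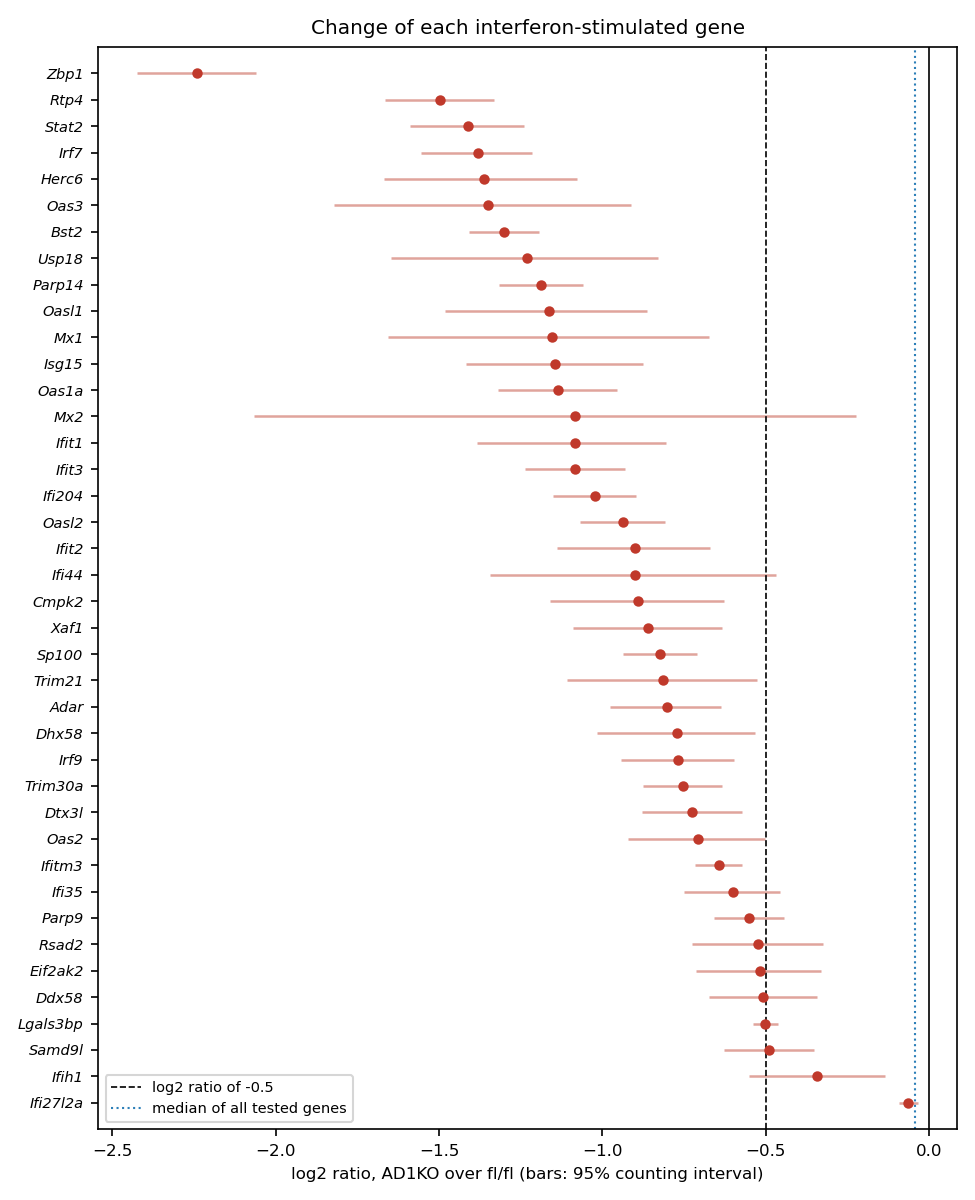
Log2 ratio (AD1KO to fl/fl) of each of the 40 genes, ordered from the largest fall at the top, with points for the ratio and bars for the 95% counting interval. The bars end below 0 in all 40 and wholly pass the dashed line at -0.5 in 29, from Zbp1 at -2.24 to Ifi27l2a at -0.06, the latter turning to 0.03 under upper quartile scaling.

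The interferons themselves were barely detected. Of 18 type I interferon genes listed, 3 were in the table. Ifnb1 was listed at 0 in fl/fl and at 0.09 FPKM in AD1KO, which is 0 against 1 estimated read, and Ifna7 was also at 0 reads against 1. Ifnz had 2 reads in fl/fl and 1 in AD1KO. At this depth a difference between the groups in ligand transcripts was not detectable.

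The receptor was present in both libraries. Ifnar1 measured 10.9 FPKM in fl/fl and 8.74 in AD1KO, a ratio of -0.32, and Ifnar2 measured 126.7 and 143.7 FPKM, a ratio of 0.18. Neither subunit passed the threshold, nor did the kinase gene Jak1 at -0.13. Tyk2 passed it at -0.66.

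Of 15 genes for upstream sensing and signalling, 10 were lower and none was higher, with a median of -0.78. The ratios ran from Samhd1 at -1.64 to Irf3, the factor that starts interferon transcription, at -0.03. Samhd1 encodes an enzyme that depletes nucleotides and is itself induced by interferon. The genes of the DNA sensor Cgas and its adaptor Sting1 had ratios of -1.10 and -1.11, whereas Mavs, the adaptor of RIG-I and MDA5, was at -0.13. Among 8 negative regulators 4 were lower, with Socs1, an inhibitor of JAK kinases, falling from 11.7 FPKM in fl/fl to 2.45 in AD1KO, a ratio of -2.25. The extremes of that list were Sla2 at -2.35 and Cish at 0.02. In the type III interferon list, the shared receptor gene Il10rb had a ratio of -0.62, and Ifnlr1 rested on 11 and 6 reads.

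A further list of 64 interferon-stimulated genes outside the 40 gave 58 that could be measured. Of these 39 were lower and none was higher, with a median of -0.72, and 54 of the 58 were below 0. Gm4951, an interferon-inducible GTPase, had the largest fall of that list, from 11.1 FPKM in fl/fl to 1.67 in AD1KO, a ratio of -2.72.

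The medians of the interferon gamma axis and of the interferon-inducible GTPases lay below the ratios of most of the 40 members. Of 13 genes of the interferon gamma axis 9 were lower and none was higher, with a median of -1.90. Ifng went from 2.12 FPKM in fl/fl to 0.21 in AD1KO, a ratio of -3.28 from 41 and 4 estimated reads, and the receptor gene Ifngr1 was at -0.12, the smallest change in that list. At the other end, the chemokine gene Cxcl11 was listed at 0 in AD1KO and had 6 reads in fl/fl. The interferon-inducible GTPases of the Gbp and Irg families were all lower, 17 of 17, between Gbp10 at -4.09 and Gbp9 at -1.16, with a median of -2.64. Each of the 40 members fell by less than that median, and 39 of 40 fell by less than the median of the interferon gamma axis, Zbp1 being the exception. These lists are induced by both kinds of interferon in part, so they do not separate the signals.

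**Figure D3:**
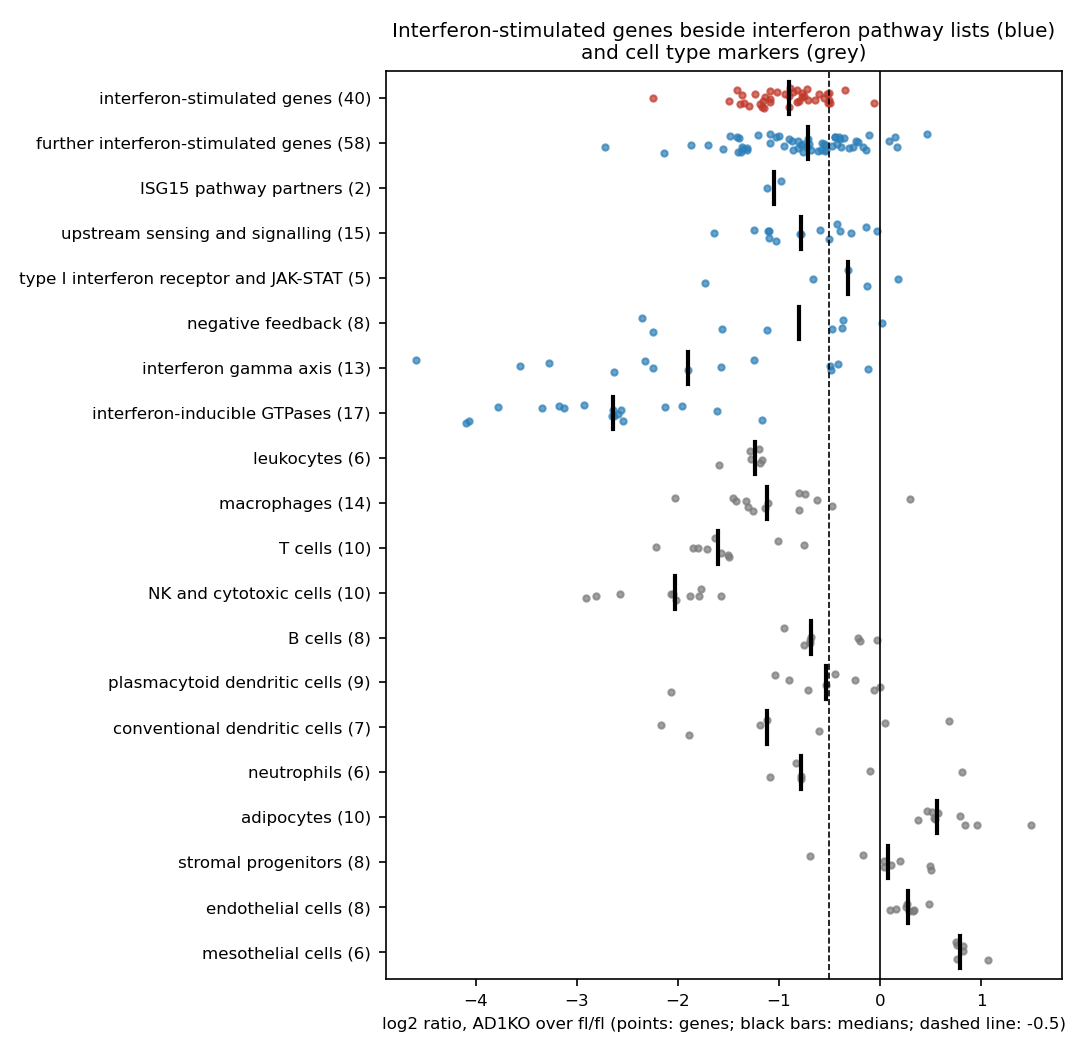
Log2 ratio (AD1KO to fl/fl) of single genes (points) in the 40 interferon-stimulated genes (red), in lists of the interferon pathway (blue) and in cell type markers (grey), with the number of tested genes in parentheses, black bars for medians and a dashed line at -0.5. The median of the 40 members, -0.90, lies above those of the interferon gamma axis (-1.90) and the GTPases (-2.64) and below that of the adipocyte markers (0.56), and Ifi27l2a among the members turned to 0.03 under upper quartile scaling.

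Most markers of immune cells were also lower in AD1KO. All 6 leukocyte markers were lower, with a median of -1.24 and a summed level of 1618 FPKM in fl/fl and 621 in AD1KO. Ptprc, which encodes the pan-leukocyte antigen CD45, was at 27.3 and 11.3 FPKM. Of 14 macrophage markers 12 were lower, with a median of -1.12 and a sum of 5175 and 2095 FPKM, the exceptions including Cd163 at 0.30. None of the leukocyte or macrophage markers was at 0 in either library. All 10 T cell markers (median -1.61, sum 100.1 and 34.5 FPKM) and all 10 markers of NK and cytotoxic cells (median -2.03, sum 64.8 and 16.1 FPKM) were lower.

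Markers of plasmacytoid dendritic cells, which are specialised producers of type I interferon, had a median of -0.54 with 5 of 9 lower. Their defining gene Siglech measured 0.6 FPKM in fl/fl and 0.41 in AD1KO, from 24 and 17 reads. B cell markers were lower in 5 of 8 (median -0.68), conventional dendritic cell markers in 5 of 7 (median -1.12) and neutrophil markers in 4 of 6 (median -0.79, with a sum that was higher in AD1KO at 64.3 FPKM against 45.6). Adipocyte markers were higher in 8 of 10, with a median of 0.56 and a sum of 17741 FPKM in fl/fl and 27661 in AD1KO. Mesothelial markers were higher in 6 of 6 with a median of 0.79, endothelial markers had a median of 0.28 with none past the threshold, and stromal progenitor markers a median of 0.08. Of the oviduct and uterus markers 3 of 6 were lower. Ovgp1 had 149 reads in fl/fl and 7 in AD1KO (ratio -4.29), Wfdc2 had 38 and 4 (-3.19), and Pax8 had 11 and 0. Epcam at -0.33, Krt8 at 0.27 and Krt18 at 0.05 passed neither threshold. Whether the 2 pools differed in attached reproductive tissue was not tested.

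Set against these lists, 7 of the 40 interferon-stimulated genes fell by more than the leukocyte median, and 13 fell by more than the macrophage median. Those past the leukocyte median were Zbp1, Rtp4, Stat2, Irf7, Herc6, Oas3 and Bst2. The members' ratios thus lay mostly between those of leukocyte markers and 0, in a tissue whose leukocyte markers were lower and whose adipocyte markers were higher. The part that these cell types had in the lower levels of the interferon-stimulated genes was not tested.

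The 40 genes lie on 15 chromosomes of mm9, and 17 of them form 7 clusters in which neighbouring members are within 500000 bases. On chromosome 19, Ifit2, Ifit3 and Ifit1 span 34625184 to 34724499. On chromosome 5, Oasl2 and Oasl1 span 115346943 to 115387924, and Oas2, Oas3 and Oas1a span 121180342 to 121357536. On chromosome 16, Parp14, Dtx3l and Parp9 span 35832960 to 35972691, and Mx1 and Mx2 span 97668642 to 97782506. Rsad2 and Cmpk2 lie on chromosome 12 between 27127618 and 27164700, and Ifitm3 and Irf7 on chromosome 7 between 148195485 and 148452380.

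All 17 clustered members were lower. Of 40 tested neighbours within these clusters or 100000 bases of them, 10 were lower and 5 were higher. Their median was -0.12, and 25% were lower, against 19.1% of all tested genes. The neighbours include Oas1b, Oas1c, Oas1g, Ifitm1 and Ifitm2, which are on the list of further interferon-stimulated genes. Some calls rest on few reads, as for Fam3b, Ano9 and Cdhr5 among the higher and B4galnt4 among the lower. Beside the Ifit genes, the cholesterol hydroxylase gene Ch25h measured 2.13 FPKM in fl/fl and 0.37 in AD1KO, a ratio of -2.49, and the lysosomal lipase gene Lipa was at 178 and 91.7 FPKM, a ratio of -0.96. On the other side of the same cluster Slc16a12 had a ratio of 0.83. Within the Oas cluster Oas1g was at -1.31, while Oas1c was at -0.11. Next to Ifitm3, the close relative Ifitm2 was more abundant (660 and 535 FPKM), but its ratio of -0.30 did not pass the threshold.

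**Figure D4:**
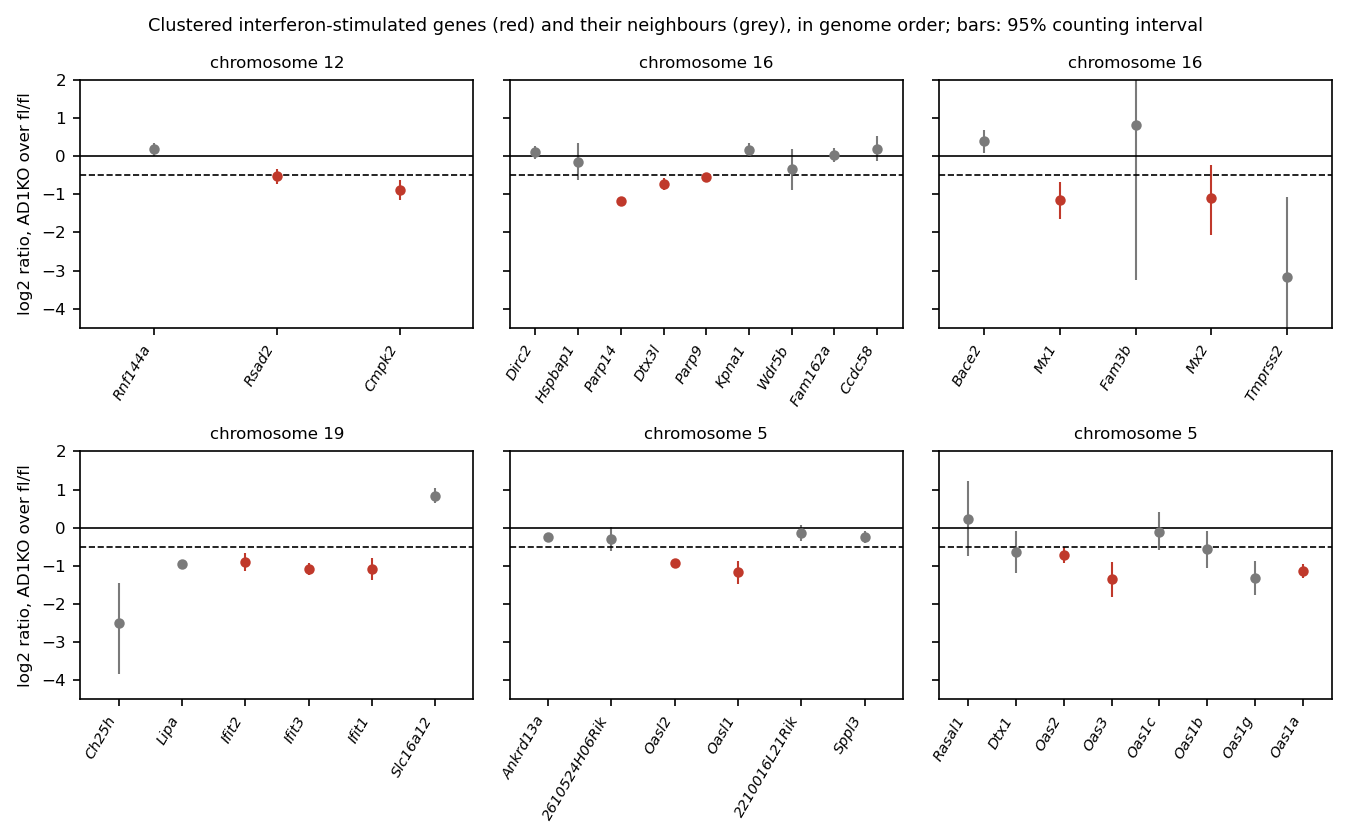
Log2 ratio (AD1KO to fl/fl) of interferon-stimulated genes (red) and their tested neighbours (grey) in genome order in 6 of the 7 clusters, with bars for the 95% counting interval, a solid line at 0 and a dashed line at -0.5. Red points lie below the dashed line in each panel, while neighbours lie on both sides of 0, and the bars of Fam3b and Tmprss2, which have few reads, run past the axis.

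The share of members with an ISRE in a promoter window was set beside that of all genes in the promoter table. The core, GAAA, 2 bases and GAAA on either strand, was present in 14 of 29 matched members, 48.3%, and in 3.99% of 27025 genes in the promoter table. The longer form, the core followed by CT, was searched on either strand and contains the first. It was present in 7 members, 24.1%, and in 0.303% of all genes. These 7 were Bst2, Oas1a, Ifit1, Ifit3, Trim30a, Ifitm3 and Ddx58. The motif TTCNNNGAA, which STAT dimers bind and which reads the same on both strands, was in 7 members, 24.1%, against 9.55% of all genes.

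Members with and without the motif were compared by their median change. The median ratio was -0.95 in the 14 with the core and -0.86 in the 15 without it. Irf7, which was among the members that fell most, had no match in this window, and Ddx58, with a match of the longer form, lay close to the threshold. No match says only that these letters are missing from 300 bases around the start.

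The same motif was looked for in genes outside the 40. Of 452 other tested genes with the core, 31.4% were lower and 12.2% were higher, and of 11420 without it 17.0% were lower. For the longer form, 29 of 45 other genes were lower, 64.4%, and 2 were higher, with a median of -0.81. When genes on any of the interferon lists were left out, 26 with the longer form were left, of which 13 were lower and 2 were higher, with a median of -0.53. These shares are descriptions of sequence and level in the same libraries.

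CpG dinucleotides, the sites that DNMT1 methylates, were counted in the promoters of the 29 matched members and of all genes in the promoter table. Where a gene had more than 1 window of 300 bases, the window with the most CpG was used. The median per gene was 6 against 8 over all genes, and 2 members, 6.90%, held 20 or more, against 28.8% of all genes. Under 5 CpG were held by 12 members, 41.4%, and by 36.5% of all genes. The members' median ratio was -0.88 in the 12 with under 5 CpG, -0.86 in the 15 with 5 to 19 and -1.11 in the 2 with 20 or more. Over all tested genes with a window, 39.9% were lower with under 5 CpG, 19.8% with 5 to 19 and 11.9% with 20 or more. Their median ratios were -0.10, -0.03 and -0.04 in the same order. The share that was higher was not counted by CpG. Methylation of these windows was not analysed here.

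**Figure D5:**
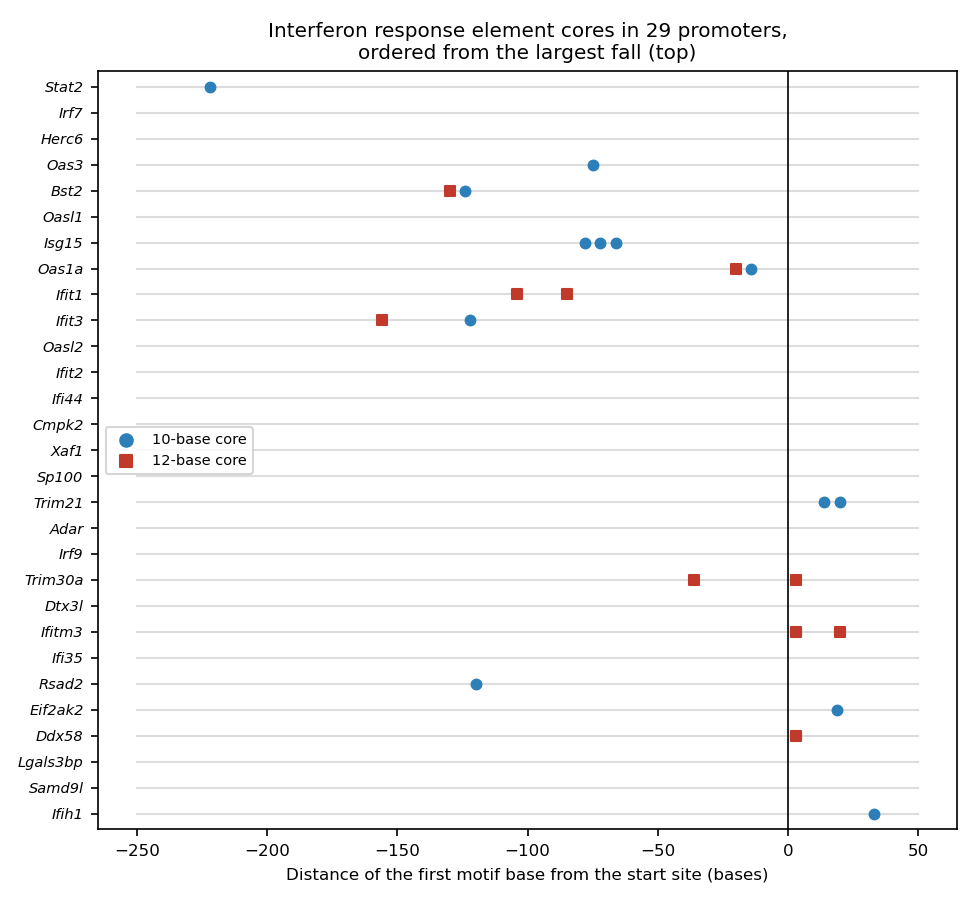
Position of the first base of each ISRE motif, in bases from the start site, in 29 promoters of interferon-stimulated genes ordered from the largest fall at the top, with blue circles for the core and red squares where the longer form, the core followed by CT, was present. Matches were found in 14 genes, 7 of them with the longer form, and they are spread over the order of change.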

How the data were processed

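RNA of gWAT from 4 female mice per group was pooled by the authors, made into oligo-dT selected libraries and sequenced, with clean reads aligned to mouse mm9. The quantifier, and whether counting used strand, are not given in the sources used here. The authors deposited FPKM per gene in 1 table, with 0 written as 0.01. Its columns of fold change, P-value and FDR hold the authors' own comparison and were not used. The bisulfite libraries of the series were not analysed here.

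Values of 0.01 were set back to 0, and log2 ratios were computed after adding 0.01 FPKM for genes with at least 0.1 FPKM in 1 library. Depth was estimated from whole-number steps in genes under 700 bases and 2 FPKM, with transcript length shortened by 115 bases. Depth and shortening were chosen to bring these same values nearest to whole numbers. With them, 79.7% of 237 values in fl/fl and 77.3% of 238 in AD1KO lay within 0.2 reads of a whole number. An even spread would give 40%, but that share does not allow for the fit. Estimated reads summed to 17733069 and 17540843, with a median of 570 over both libraries per tested gene. Intervals are exact Clopper-Pearson intervals at 95%. They cover counting error only, since each group is 1 pooled library. The table carries no molecular identifiers, so duplicate reads could not be told from independent ones.

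The members and all gene lists were chosen with earlier results of these data known. The genes named are the 40 members, Ifnar1, Ifnar2, Ifnb1, Ifng, the lowest and highest gene of each pathway list, neighbours in clusters and Dnmt1, except 1 gene that is not reported here. Other genes, such as Socs1, Ifi27l2b, Siglech or Mavs, were named after their values were seen. Gene positions are from GENCODE on mm9, and members with at least 20% of their 50-base stretches in another gene's transcript were treated as having a near-identical copy (Ifi204, Ifit3, Oas1a and Ifi27l2a). Alternatives were other pseudocounts, minimums, scalings (trimmed mean of M-values, upper quartile, median of ratios) and thresholds, the longer motif, and leaving out members with copies. Ratios of estimated reads, and leaving out Ifi27l2a, were chosen after seeing the data. The steps for depth, estimated reads, log2 ratios and counting intervals were first tested on simulated reads. The scalings and the steps on copies, clusters and promoters were not. Matplotlib 3.10.9, pandas 2.3.3, SciPy 1.17.1 and NumPy 2.4.6 were run under Python 3.11.15.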

Additional observations from a re-analysis of the deposited data

How the results depend on the processing

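Between 32 and 37 members were lower, and none was higher, under every other pseudocount, minimum and scaling tried, as with estimated reads and without Ifi27l2a. Over all 15839 tested genes, 1661 were lower and 965 higher with 1 FPKM added. Under upper quartile scaling 2591 were lower and 2814 higher. At a minimum of 1 FPKM, 2068 of 12706 genes were lower and 1281 higher. The median ratio ranged from -0.90 to -0.72, the latter with 1 FPKM added. At a threshold of 1 the count was 17, against 8.95% of all tested genes, since 20 members lie between the thresholds. The longer motif was found in 7 members in place of 14 because it contains the shorter. Ddx58, Eif2ak2, Rsad2 and Lgals3bp lost the call under each scaling and with 1 FPKM added. Parp9 lost it under upper quartile scaling, at -0.46, and Mx2 with 1 FPKM added, at -0.41. Without the 4 members that have near-identical copies, 34 of 36 were lower, against 19.1% of all tested genes. No paired analysis was possible because each group is 1 pooled library. The pools hide the spread between animals, and reads per member limit precision most for Mx2, Mx1, Ifi44 and Oas3.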
